A study of Rattus norvegicus with 120 samples.

Results

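Of 120 F2 rats whose eyes were profiled on Affymetrix arrays, 26 had a low value on 1 probe set annotated to Sv2b and 94 had a high one, and the 2 groups are compared here over all other probe sets. A probe set is a group of short array probes that report 1 transcript together. The animals were chosen by their measured values on probe set 1369628_at: after the mean of each S code (1 of 10 unexplained codes in the sample titles, with 11 to 13 arrays each) was subtracted and the overall mean added back, an animal under 9.8 on the log2 scale was low and an animal at 9.8 or more was high. All animals, low and high, were 12-week-old males of the F2 generation of 1 intercross of 2 inbred lines, SR/JrHsd and SHRSP, and RNA from both eyes of an animal went onto 1 array. No treatment is named in the labels, the labels put all animals in 1 group, and neither genotypes nor the L codes in the titles are explained there. The titles of S codes 1 to 5 also hold a date, with 1 date for each code. The choice of members by 1 probe set limits the groups as a model of Sv2b level, as the second probe set of the gene shows below.

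SV2B is a membrane glycoprotein of synaptic vesicles, the organelles that store neurotransmitter and release it at the nerve terminal. It belongs with SV2A and SV2C to a small family with the fold of membrane transporters, and in the retina it is known from the ribbon terminals of photoreceptors and bipolar cells. In an F2 generation each animal inherits a shuffled pair of parental chromosomes, so genes close together on a chromosome tend to be inherited together and genes far apart less so.

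The sequences just upstream of 2 genes are shown because the groups were made with a probe set annotated to Sv2b and because Ms4a8 was the gene of smallest p between them. Both genes lie on the minus strand of chromosome 1. The 250 bases before each gene's start are from RefSeq (assembly GRCr8), at chr1:138562259-138562508 for Sv2b and chr1:217169152-217169401 for Ms4a8, with every CG dinucleotide in capitals.
Sv2b: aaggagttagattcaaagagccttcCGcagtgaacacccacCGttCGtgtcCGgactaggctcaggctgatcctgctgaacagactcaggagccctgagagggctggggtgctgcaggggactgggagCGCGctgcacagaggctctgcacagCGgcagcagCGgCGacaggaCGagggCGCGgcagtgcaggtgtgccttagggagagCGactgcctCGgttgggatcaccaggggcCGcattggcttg
Ms4a8: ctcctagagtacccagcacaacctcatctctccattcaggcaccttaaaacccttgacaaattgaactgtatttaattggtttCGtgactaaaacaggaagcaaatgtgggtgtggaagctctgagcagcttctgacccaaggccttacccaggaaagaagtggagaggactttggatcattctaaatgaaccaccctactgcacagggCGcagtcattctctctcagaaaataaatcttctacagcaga
The Sv2b stretch held 15 CG and was 64% G or C, and 25.8% of 33469 RefSeq promoters of that length held at least as many CG. The Ms4a8 stretch held 2 CG and was 45.2% G or C, and 81.9% of the promoters held at least as many.

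One low array stood apart from the others. The array of animal 63 had a median correlation of 0.937 with the other arrays, against 0.970 for the next least alike, that of high animal 15. The array of animal 63 is also 1 of the 3 that the titles mark as scanned again. The number of probe sets called is also given without it, as are the differences of some genes. Genes whose call was lost without it are named. Counts by chromosome and by gene order are not given without this array alone.

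On the probe set of the rule the groups stood far apart, which the choice of animals fixed. The low animals had a lowest value of 6.26, a median of 8.22 and a highest of 9.32, against 10.61, 11.43 and 12.37 in the high animals. The means were 8.19 ± 0.78 in the low and 11.48 ± 0.32 in the high animals (SD, n = 26 and 94), a 9.79-fold lower level in the low group. The animals nearest the limit were animal 2, low at 9.32, and animal 15, high at 10.61, so no animal lay between these values. On the deposited scale, without removal of S code means, the same animals fell in each group and the means were 8.10 ± 0.85 and 11.50 ± 0.17. The low group made up 21.7% of the animals, with an exact Clopper-Pearson 95% interval of 14.7% to 30.1%. Each S code held 2 to 4 low animals. Over the 22 L codes, 6 held no low animal, while L code 11 held 4 low animals of 5 and L code 6 held 3 of 5. A permutation of low and high within S codes gave p = 0.223 for an uneven spread over L codes (chi-square 25.2, 100000 permutations).

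The name "Sv2b low" was not borne out by the second Sv2b probe set, so the groups are called low and high on 1369628_at. The third was too dim to show such a fall and does not bear on the name. The second Sv2b probe set, 1369627_at, had a lowest value of 8.79, a median of 9.35 and a highest of 9.76 in low animals, against 8.19, 9.33 and 10.08 in high animals. Every low animal lay within the range of the high animals. The difference, low minus high, was 0.01 on the log2 scale (95% interval -0.12 to 0.14, limma, adjusted p = 0.978), and it was below 0 in 5 S codes and above 0 in 5. Without the array of animal 63 it was 0.024, and without that of animal 15 it was -0.00084. The interval leaves out any fall close to that on the probe set of the rule. The third, 1375142_at, lay under the filter on dim probe sets in the mean over all arrays, with 3.96 ± 0.18 in low and 4.04 ± 0.17 in high animals. Its difference was -0.08 (interval -0.16 to 0.001, adjusted p = 0.838 in a limma fit without the filter). In the array annotation the 3 probe sets derive from different source sequences. Sv2a, the widely expressed family member, had 7.56 ± 0.21 in low and 7.50 ± 0.20 in high animals (difference 0.06, interval -0.04 to 0.15, limma adjusted p = 0.824). Sv2c was under the filter and differed by -0.02 (limma adjusted p = 0.927).

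**Figure D1:**
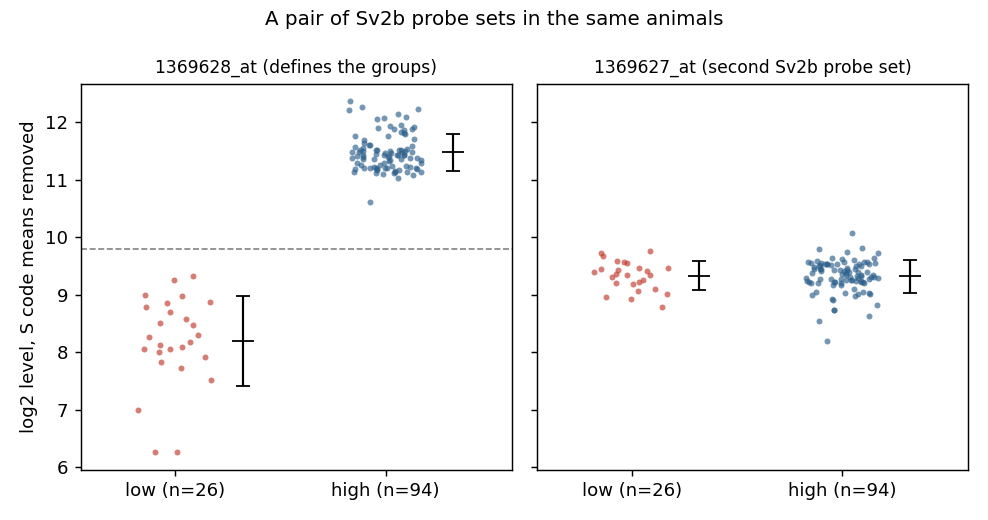
Log2 level after removal of S code means (vertical axis) of 2 Sv2b probe sets in each low and high animal, with mean and SD as bars and the limit of 9.8 as a dashed line. On 1369628_at, which made the groups, no animal lies between 9.32 and 10.61, whereas on 1369627_at the means are 9.33 in low and 9.32 in high animals.

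Between the groups, a small number of genes differed, and nearly all of those with a known place lay far from Sv2b on the same chromosome. Of 23325 probe sets tested, 59 passed an adjusted p of 0.05 (0.253% of those tested, limma with the S code as a term, Benjamini-Hochberg). In the low animals 40 were lower (0.171%) and 19 were higher (0.0815%), and 1389 had an unadjusted p under 0.05. Of the 59, 36 had 1 gene symbol, 1 had several and 22 had none. The differences were mostly small, with a median size of 0.22 on the log2 scale, and 3 reached 2-fold. The eyes were bulk samples, so fewer cells of a type and less RNA per cell cannot be told apart in any of these values.

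The low animal whose array stood apart, animal 63, had the lowest value of all low animals in 16 of the 22 named genes that were lower in low animals and in 6 of the 11 that were higher. Without it 45 probe sets passed, 25 lower and 20 higher, and 20 of the 33 named genes kept their call. All arrays are used in the values that follow, and the genes whose call was lost without animal 63 are named as such. For called genes, counts of S codes with the same sign are description only. These genes were picked by p from the same arrays.

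Ms4a8, a member of the MS4A family of membrane-spanning proteins, differed most by p. Its lowest, median and highest values were 7.71, 8.27 and 8.75 in low animals, against 8.61, 9.21 and 9.96 in high animals. The ranges met only at their edges, with 5 of 94 high animals inside the range of the low and 3 of 26 low animals inside the range of the high. The difference was -1.0 (SE 0.067, limma adjusted p = 2.36e-24), 2-fold lower in the low animals, and it was below 0 in all 10 S codes (-1.28 to -0.80). Without animal 63 it was -1.0 as well. Ms4a6bl1, annotated to the same family and 2 measured genes from Ms4a8, was lower by 0.30 on average at 5.59 ± 0.42 in low and 5.88 ± 0.27 in high animals (limma adjusted p = 0.0292, 0.125 without animal 63). Ms4a7, between the 2 genes, differed by -0.20 (limma adjusted p = 0.134), and Ms4a10 by 0.009.

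Cyb561a3, a cytochrome b561 protein of lysosomes, was higher in low animals. Its lowest, median and highest values were 6.61, 7.23 and 7.43 in low animals, against 6.32, 6.85 and 7.31 in high animals, a difference of 0.39 (limma adjusted p = 3.99e-10). The lowest of the low values was that of animal 63, and without it the difference was 0.42. All 10 S codes had the same direction. Tpcn2, a cation channel of lysosomes and endosomes, was higher too, with 6.44 ± 0.13 in low and 6.26 ± 0.16 in high animals (difference 0.18, limma adjusted p = 0.00245, above 0 in 10 of 10 S codes).

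The other called genes are grouped by known role, a grouping made after the values were seen and given as description. Bbs1, a subunit of the BBSome that carries membrane proteins in cilia and is mutated in Bardet-Biedl syndrome in humans, had 5.52, 6.60 and 6.92 as lowest, median and highest in low animals, against 6.39, 6.91 and 7.53 in high animals. The difference was -0.33 (limma adjusted p = 5.03e-07), with the lowest low value again in animal 63, and -0.29 without that animal. A second Bbs1 probe set, 1386732_at, was lower by a similar amount (-0.25, limma adjusted p = 8.61e-05). Cep78, a centrosomal protein mutated in human cone-rod dystrophy with hearing loss, was higher at 6.01 ± 0.19 in low and 5.81 ± 0.18 in high animals (difference 0.20, limma adjusted p = 0.00524). Cntf, a growth factor that sustains neurons, was higher at 7.97 ± 0.16 in low and 7.82 ± 0.15 in high animals (difference 0.15, limma adjusted p = 0.0244). Vldlr, a receptor for lipoproteins and reelin, had 4 probe sets: 2 were lower (-0.23 and -0.21, limma adjusted p = 0.0326 for each), 1 did not pass at -0.24 (0.134) and 1 did not pass at 0.08 (0.803).

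Among genes known from inflammation and immune cells, Pycard, the adaptor of inflammasomes, had 7.55, 8.25 and 8.93 as lowest, median and highest in low animals, against 7.88, 8.72 and 9.30 in high animals. The lowest low value was that of animal 63. Most low animals lay inside the range of the high animals, 22 of 26, and the difference was -0.47 (limma adjusted p = 1.31e-06, below 0 in 10 of 10 S codes). Batf2, a transcription factor of the interferon response, had 5.45 ± 0.21 in low and 5.76 ± 0.24 in high animals (difference -0.32, limma adjusted p = 8.03e-05). Anxa1, a phospholipid-binding protein that limits inflammation, had 12.46 ± 0.12 and 12.60 ± 0.10 (difference -0.15, limma adjusted p = 8.61e-05). Itgal, the alpha chain of a leukocyte integrin, had 4.36 ± 0.21 in low and 4.64 ± 0.24 in high animals (difference -0.29, limma adjusted p = 0.000436). Both levels of Itgal lay close to the filter of 4.28 on dim probe sets. Fadd, the adaptor of death receptors, differed by -0.18 (limma adjusted p = 0.0075). Ebi3, a cytokine subunit and the only called gene off chromosome 1, differed by -0.12 (limma adjusted p = 0.0350, 0.0774 without animal 63).

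Of the genes with other roles, Gpha2, the alpha subunit of the hormone thyrostimulin, ran from 9.63 to 10.52 in low animals, against 9.96 to 11.08 in high animals, with means of 10.09 ± 0.21 in low and 10.49 ± 0.23 in high animals. The ranges overlapped widely, with 49 of 94 high animals in the range of the low, and the difference was -0.40 (limma adjusted p = 2.25e-08, below 0 in 10 of 10 S codes). Rnf40, a ubiquitin ligase of histone H2B, was higher by 0.40 at 6.60 ± 0.30 in low and 6.21 ± 0.33 in high animals (limma adjusted p = 0.000558). Ermp1, a peptidase of the endoplasmic reticulum, gave opposite directions on 2 probe sets, -0.33 on 1388889_at (limma adjusted p = 0.000119) and 0.35 on 1384975_at (limma adjusted p = 0.0332). Osbp, an oxysterol-binding protein that moves sterols, differed by -0.11 on 1373974_at (limma adjusted p = 0.000398), while its second probe set did not pass (-0.09, 0.803). H19, an imprinted noncoding RNA, was higher by 0.22 (limma adjusted p = 0.0132), Psat1, an enzyme of serine synthesis, by 0.21 (0.00772), and Inpp5a, an inositol phosphate phosphatase, by 0.11 (0.0084). Chid1 differed by -0.25 and Nucb2, the precursor of nesfatin, by -0.19 (limma adjusted p = 0.000171 and 0.0015).

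Of the 25 genes of smallest p, 17 were lower and 8 were higher in low animals, all 25 lay on chromosome 1, and the sizes ran from 0.10 to 1.0. The sign was the same in all 10 S codes for 12 of them and in at least 8 S codes for each. This is not separate support, because the genes were picked by p over the same arrays. Each S code also held only 2 to 4 low animals. Of the 25, 5 lost their call without animal 63, namely Cstf2t, a factor of messenger RNA cleavage (-0.13), Sfr1, a factor of recombination repair (-0.10), Pold4, a subunit of DNA polymerase delta (-0.14), Echs1, an enzyme of fatty acid oxidation in mitochondria (-0.13), and Ms4a6bl1. Kcnip2, a subunit of potassium channels, was higher by 0.27 (limma adjusted p = 0.0431), and its second probe set did not pass (0.22, 0.116). Kcnip2, Mrpl16 of the mitochondrial ribosome, Vldlr, the folate receptor Folr1 (0.18), Ebi3, the membrane transporter Slc22a18 (-0.13), Pwwp2b (-0.15) and Ifitm10 (0.14), which were all the called genes after the 25, lost their call without animal 63 too.

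**Figure D2:**
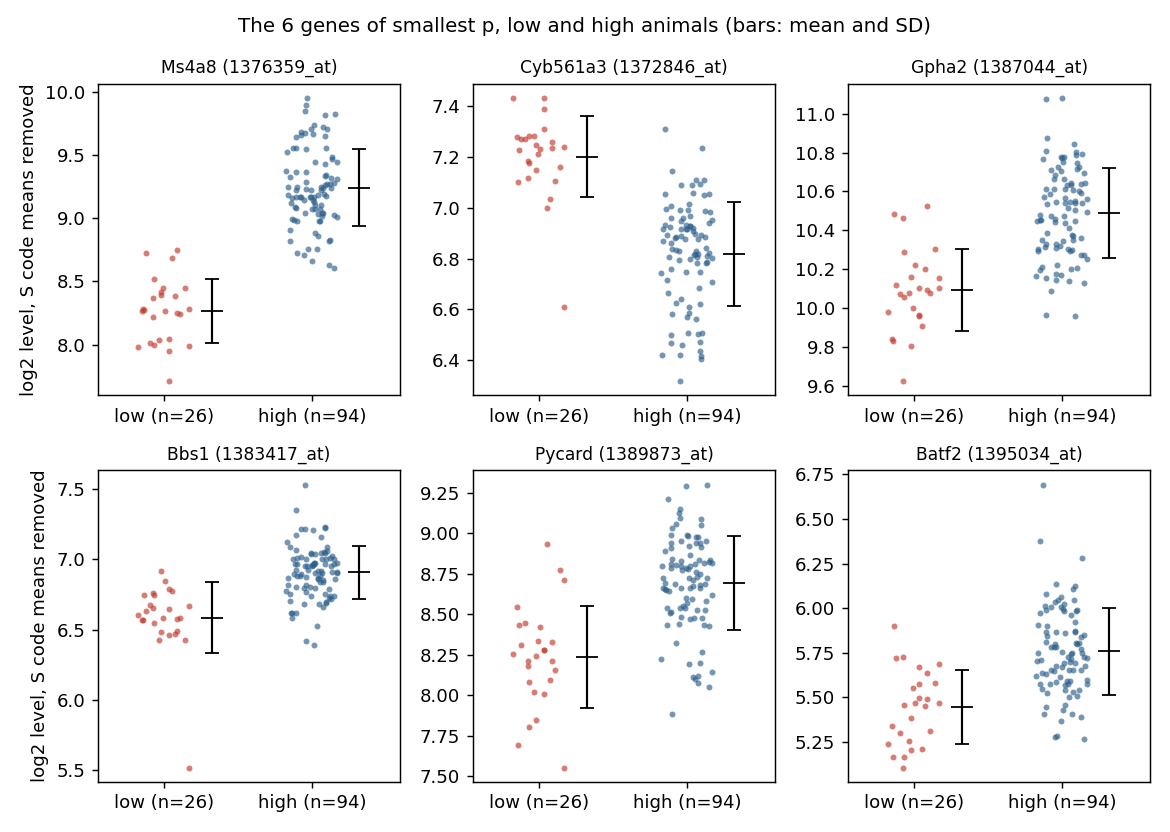
Log2 level after removal of S code means (vertical axes) of the 6 genes of smallest p in each low and high animal, with mean and SD as bars. Ms4a8 has 3 of 26 low animals inside the range of the high animals, while the other 5 genes overlap widely, and the lowest low animal of Bbs1, at 5.52, is animal 63.

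Probe sets without a gene symbol are given by ID for the 3 of smallest p. Probe set 1368718_at had 5.77 ± 0.48 in low and 4.63 ± 0.69 in high animals, the largest difference in size of any probe set called (1.17, limma adjusted p = 1.8e-08). Probe set 1373434_at was lower by 0.28 and 1395030_at by 0.42 on average (limma adjusted p = 2.95e-06 and 6.37e-06). A further large difference was on 1371245_a_at, which is annotated to several genes and is not named, with 9.46 ± 0.93 in low and 10.49 ± 0.68 in high animals (-1.06, limma adjusted p = 1.51e-05).

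Counted by gene, with the probe set of highest mean for each, 32 of 12326 genes passed (0.26%), 21 lower (0.17%) and 11 higher (0.0892%) in low animals. Chromosome 1, which carries Sv2b, held 31 of the 32, out of 1535 genes tested there (2.02%), with 20 lower and 11 higher. The other chromosomes together had 1 called gene of 10748 (0.0093%), which was Ebi3 on chromosome 9. Genes with no chromosome in the RefSeq table made up the rest of the genes tested.

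**Figure D3:**
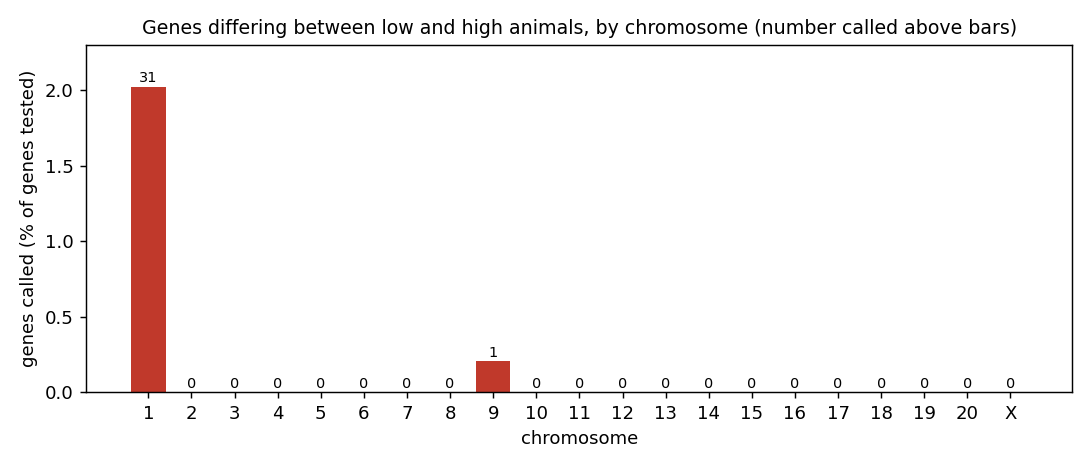
Share of tested genes that differed between low and high animals (vertical axis, percent) for each chromosome, with the number of called genes above each bar. Chromosome 1 has 31 called genes (2.02%) and chromosome 9 has 1.

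Along chromosome 1 the called genes did not lie around Sv2b. Distance was counted in measured genes from Sv2b, in the gene order of the RefSeq table. None of 50 genes within 25 genes of Sv2b was called, nor any of 150 genes from 26 to 100 away. With 0.26% of all genes called, no call in so few genes is near that share. Unadjusted p was under 0.05 for 6 of the 50 and 18 of the 150, against 6.86% of all genes. Over 100 and up to 300 genes away 2 of 400 were called (0.5%), and beyond 300 genes away 29 of 934 were called (3.1%), against 0.26% of all genes. All 31 lay on the same side of Sv2b, from Folr1 at 149 genes to Sfr1 at 872 genes, with a median of 538, and none lay among the 614 measured genes on the other side. The stretch with calls was long. Counts per 100 genes were 9 at 400 to 499 genes and 7 at 600 to 699 genes, which hold Ms4a8 at 686. Within 100 genes of Ms4a8 13 of 201 genes were called, and within 300 genes 26 of 535, windows chosen after the values were seen. Both counts include Ms4a8 itself, the gene of smallest p. Over all genes 0.26% were called, and on chromosome 1 2.02%.

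The 10 nearest measured genes on each side of Sv2b were also read singly. They include Slco3a1, a transporter of organic anions, and Akap13, a kinase-anchoring protein, as the nearest on either side, and Igf1r, the receptor of insulin-like growth factors, Rgma, a guidance molecule of axons, Chd2, a chromatin remodeller, and Acan, a proteoglycan of the matrix. None of the 20 was called, the differences ran from -0.14 to 0.11, and the lowest adjusted p was 0.786 (limma). With 0.26% of all genes called, no call in 20 genes is near that share. Unadjusted p was under 0.05 for 3 of the 20, Arrdc4, LOC102554078 and Mfge8, against 6.86% of all genes. Slco3a1 had 7.29 ± 0.14 in low and 7.32 ± 0.12 in high animals, and Akap13 differed by -0.04. On the side of the calls, 18% of the genes at 0 to 99 steps had an unadjusted p under 0.05, against 6% at the same distance on the other side. Around Ms4a8, 4 of the 20 nearest genes were called: Ms4a6bl1, Mrpl16 and Osbp were lower and Cntf was higher. Over all genes 0.26% were called and on chromosome 1 2.02%, and Ms4a8 was chosen by its p. Stx3, a syntaxin of ribbon synapses that lies 3 genes from Ms4a8, had 7.07 ± 0.25 in low and 7.09 ± 0.21 in high animals (difference -0.02, limma adjusted p = 0.953).

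**Figure D4:**
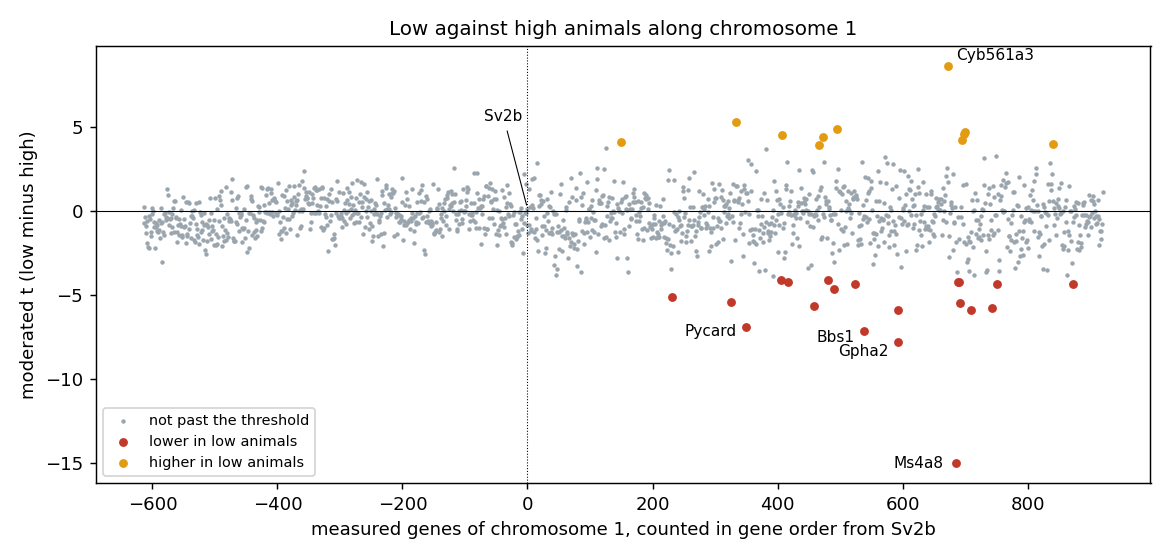
Moderated t of low minus high (vertical axis) for each measured gene of chromosome 1, placed by its number of genes from Sv2b (horizontal axis, dotted line at Sv2b, shown by its second probe set). Called genes are coloured by direction, and all 31 lie to the right of Sv2b, from 149 to 872 genes away.

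No synaptic gene passed the test. The 3 lists, of SV2 and other synaptic vesicle proteins, of the release machinery and of the ribbon synapse, held 41 different genes above the filter. None was called, which in 41 genes is near the share of 0.26% over all genes. None had an unadjusted p under 0.05, against 6.86% of all genes. The differences ran from -0.10 to 0.09, and the median was -0.001 beside -0.014 over all genes. Among the vesicle proteins, synaptophysin (Syp) had 9.85 ± 0.16 in low and 9.88 ± 0.15 in high animals. The calcium sensor Syt1 had 8.19 ± 0.39 in low and 8.16 ± 0.40 in high animals, and the glutamate transporter Slc17a7 9.40 ± 0.27 and 9.31 ± 0.31. The 2 groups overlapped in each of these. In the release machinery the membrane fusion protein Snap25 had the lowest difference, -0.08 (interval -0.17 to 0.008). In the ribbon synapse list Cabp4, a calcium-binding protein of photoreceptor terminals, had the lowest, -0.10, with 7.47 ± 0.35 in low and 7.57 ± 0.34 in high animals. Ctbp2, whose gene also makes the ribbon protein RIBEYE, differed by -0.03. Of the ribbon synapse list, 6 of 16 members had no probe set with that symbol alone and were not tested.

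Markers of 13 cell types of the eye gave no call either. With 0.26% of all genes called, no call in lists of this size is near that share. Each list had 3 to 11 members above the filter, with differences from -0.13 to 0.11 and a median of 0.003. Some members had no probe set with that symbol alone and were not tested, such as 6 of 13 for bipolar cells and 1 of 4 for red cells. An unadjusted p under 0.05 was found for 7 genes, 6.86% of the marker genes tested, which is the share over all genes (6.86%). Of these 7, 5 were among the 8 tested markers of pigment epithelium and melanocytes: Rpe65, the visual cycle isomerase, differed by -0.11, Tyr, the first enzyme of melanin synthesis, by -0.11, Pmel by -0.08, Tyrp1 by -0.07 and Dct by -0.06 (limma adjusted p from 0.666 to 0.801). The other 3 tested members of that list were Rgr at -0.017, Mlana at 0.06 and Lrat at 0.08. The other 2 of the 7 were Ptprc (-0.13) and Th (0.11). Defining markers of the eye were present, with the lens crystallin Cryaa at 14.12 in both groups, the rod arrestin Sag at 13.37 in low and 13.34 in high animals, and the corneal keratin Krt12 at 13.16 and 13.18. Measures of RNA and array quality overlapped between the groups. The difference of actin 3' and 5' probe sets had a median of 1.14 in low and 1.21 in high animals (low minus high -0.04, SE 0.035), that of GAPDH differed by -0.03 (SE 0.025), and array medians lay between 5.78 and 5.96 in both groups. Their part in the called genes was tested only by adding both differences to the fit, under which 55 probe sets passed.

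**Figure D5:**
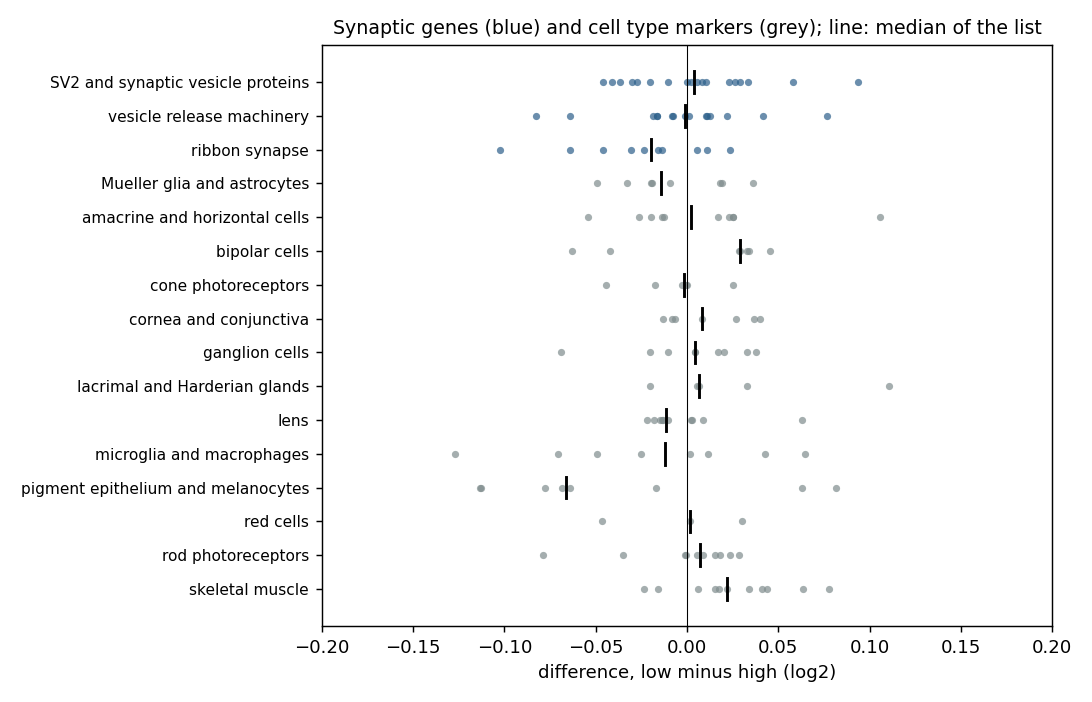
Difference, low minus high (horizontal axis, log2), of each tested member of the 3 synaptic lists (blue) and 13 cell type lists (grey), with the median of each list as a line. All points lie between -0.13 and 0.11, none passed the test, and the pigment epithelium and melanocyte list has its median at -0.07.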

How the data were processed

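The authors deposited log2 values of 31099 probe sets from 120 arrays, made by RMA per the submitters' processing notes, with no version given; RMA corrects background, normalizes between arrays and reduces each probe set to 1 value, and each value therefore reports those probes and not the whole transcript. The annotation version was not given in the sources used here. Probe sets were named through the platform annotation, updated with a RefSeq table (GRCr8) used for names and gene order. Leaving out 57 controls, 20826 probe sets had 1 symbol (20758 in RefSeq), 436 several and 9780 none.

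Low and high animals were compared with limma 3.58.1 in R 4.3.3 (low or high plus S code, empirical Bayes, Benjamini-Hochberg over 23325 probe sets with a mean of at least 4.28, the 25th percentile of all values; the probe set of the rule was left out). Levels by group have S code means removed. These means are taken over low and high animals together, so they shift with the number of low animals in an S code. Ranges, SDs and overlaps carry this shift, and group means can differ from the fitted difference. The fit was also run on simulated data with independent noise for each probe set and array. That run does not cover linked genes or an array that stands apart. Named genes were the SV2 genes, the 25 of smallest p, up to 5 of largest difference in each direction, the 10 nearest Sv2b on each side, and called list members; the other called genes are named too. Members and lists were chosen with earlier results of these data known. All arrays were counted as separate samples. Even the closest pair differed with an SD of 0.173, so no array was a copy of another, but this does not show that the animals are independent. The L code was not a term in the main fit. Precision is limited by how many arrays there are. The p-values measure the spread between animals, each with 1 array. Leaving out animal 63 or 15 alone was chosen after seeing the data.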

Additional observations from a re-analysis of the deposited data

How the results depend on the processing

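With 59 probe sets called (40 lower, 19 higher in low animals), the counts under other settings were as follows. Without the S code term 38 passed (11 higher), with an L code term 29 (25 lower, 4 higher), with a filter at the 50th percentile 39 (12 higher), and at an adjusted p of 0.01 34 (23 lower, 11 higher). Lower calls numbered 25 without the 3 rescanned arrays, 26 without animals 63 and 15, and 25 without animal 63 alone. All 3 of these settings leave out animal 63, whose array is among the rescanned ones, so they are not separate checks. With the level of 1369628_at as a continuous term lower calls numbered 25. Beyond 300 genes from Sv2b 19 genes were called without the S code term, 15 with an L code term and 17 at 0.01, against 29. Over 100 and up to 300 genes away the 2 calls became 0 without the S code term, 0 with the continuous term, 1 with an L code term, 1 with a limit of 9 and 1 at 0.01. On other chromosomes the 1 call became 0 with an L code term, actin and GAPDH terms, the 50th percentile filter, the continuous term or 0.01, and 2 with a mean-variance trend and robust fit. The difference on 1369627_at, 0.01, turned to -0.024 (L code term), -0.039 (actin and GAPDH terms), -0.0057 (continuous, per fall of 1 log2 unit) and -0.00084 (without animal 15), never past the threshold. The cause of these changes was not tested.

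Leaving out each S code in turn gave 34 to 56 calls, 22 to 40 lower and 8 to 20 higher; S codes 3 and 10 gave 34 each, with 22 lower without S code 3 and 8 higher without S code 10. Calls within 25 genes of Sv2b stayed at 0, from 26 to 100 genes 0 to 1, over 100 and up to 300 genes 1 to 3, beyond 300 genes 17 to 28 (18 without S code 3 or 8, 17 without 10), and on other chromosomes 0 to 1. The difference on 1369627_at ran from -0.014 (without S code 1) to 0.023 and that on 1375142_at from -0.10 to -0.05. In 26 alternatives 12 of 33 named genes (Ms4a8, Cyb561a3, Gpha2, Bbs1, Pycard, Batf2, Anxa1, Ermp1, Chid1, Osbp, Itgal and Rnf40) kept their call wherever tested, and no named gene changed sign. The synaptic and cell type lists had no call in any alternative run for them. No paired analysis was possible because all animals share 1 label group and their numbers only name them.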
